A study of Mus musculus with 12 samples.

Results

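The data describe 10 genes of lipoprotein assembly, lipid export and lipoprotein uptake in mouse midbrain astrocytes, in which the dose of Cd38 was varied. The genes were taken by name from the 20614 genes of the expression table: the apolipoproteins Apoe, Clu, Apod and Apoc1, the lipid exporters Abca1 and Abcg1, the plasma lipid enzymes Lcat and Lpl, the receptor Lrp1 and the nuclear receptor Nr1h2. All 10 were found. The study compared libraries of Cd38+/+ (n = 3), Cd38+/- (n = 3) and Cd38-/- (n = 6) male mice of 12 to 14 months. The allele is a global disruption of Cd38 on a C57BL/6J background, so every cell type carries it, not astrocytes alone. Striatum, thalamus and substantia nigra were dissected as midbrain tissue, endothelial cells, myelin and CD11b+ cells were removed with beads, and astrocytes were captured with ACSA-2 beads. Libraries were made with a low-input full-length cDNA kit after depletion of ribosomal RNA. The unit is TPM, an abundance corrected for transcript length that sums to 1000000 in each library. TPM holds no read number, so the depth of each library is unknown and no counting interval is given.

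In the brain, cholesterol and phospholipids travel between cells on small particles that astrocytes build and release. ABCA1 and ABCG1 move lipid across the cell membrane onto the acceptor, chiefly the protein made from Apoe, LCAT esterifies cholesterol on the particle, and LRP1 takes particles up into cells. The liver X receptors (LXR), of which Nr1h2 encodes the beta form, sense oxysterols and switch on Abca1, Abcg1 and Apoe.

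The 250 bases before the start of Apoe, the most abundant transcript of every library, and of Abca1, which among the 9 of these genes that were tested had the largest fold difference between Cd38+/- and Cd38+/+, are shown. Both lie on the minus strand of GRCm38.p6, at chr7:19699189-19699438 for Apoe and at chr4:53159896-53160145 for Abca1, and are printed from 5′ to 3′ from RefSeq. Capitals mark matches to the motifs searched on both strands, 5 in all. The TATA box was searched as TATAAA. The GC box was searched as GGGCGG. The hexamer bound by many nuclear receptors was searched as AGGTCA. The DR4 repeat of that hexamer, the spacing that LXR with RXR binds, was searched as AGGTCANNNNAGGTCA. A looser form of the repeat was searched as GGTNANNNNNGGTCA.
Apoe: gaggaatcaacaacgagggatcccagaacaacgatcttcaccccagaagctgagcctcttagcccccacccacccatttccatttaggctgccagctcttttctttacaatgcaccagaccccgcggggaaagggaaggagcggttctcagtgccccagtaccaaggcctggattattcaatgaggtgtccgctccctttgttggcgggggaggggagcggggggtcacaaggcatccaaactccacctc
Abca1: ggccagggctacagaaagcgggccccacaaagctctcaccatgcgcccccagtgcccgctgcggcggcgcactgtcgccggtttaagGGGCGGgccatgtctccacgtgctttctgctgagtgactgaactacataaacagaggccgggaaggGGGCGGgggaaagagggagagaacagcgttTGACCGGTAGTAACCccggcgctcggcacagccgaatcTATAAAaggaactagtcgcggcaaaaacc
The Apoe window held none of the 5 motifs. The Abca1 window held a TATA box from 29 to 24 bases upstream, GC boxes from 163 to 158 and from 97 to 92 bases upstream, and a loose DR4 repeat on the opposite strand from 67 to 53 bases upstream. Of 32841 windows of this length, 12.4% held the TATA box, 32.7% the GC box, 14.0% the hexamer, 0.0152% the exact DR4 repeat and 0.177% the loose one. Windows were matched for 6 of the 10 genes. Those of Apod, Lcat and Nr1h2 held none of these motifs, and that of Lrp1 held 1 GC box, on the opposite strand. A match of letters is not a binding site, and Apoe has 3 start sites in the reference, of which the one at the annotated gene start is shown.

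The libraries of the 3 genotypes differed in more than Cd38. Genes listed above 0 numbered 13160 to 13516 in Cd38+/+ libraries, against 16160 to 16327 in Cd38+/- and 15920 to 17906 in Cd38-/- libraries, so that detection runs along genotype. The 10 astrocyte markers, such as Aqp4 and Gja1, were above 0 in all 12 libraries and summed to 10425 to 14896 TPM in Cd38+/+, 15605 to 17506 in Cd38+/- and 11998 to 15031 in Cd38-/- libraries. The 5 erythroid markers summed to 7770 to 34711, 3228 to 6453 and 3805 to 15378 TPM in the same order, and the 10 oligodendrocyte markers to 1329 to 7235, 3114 to 11070 and 3194 to 17849 TPM. The 12 microglia markers summed to 111 to 138 TPM in Cd38+/+, with Cx3cr1 and Tmem119 at 0 in every library, to 146 to 183 in Cd38+/- and to 125 to 212 in Cd38-/- libraries. Markers of other cell types, namely Mog, Th, Slc6a3, Kl, Mrc1, Lyve1 and Ms4a7, were also at 0 in every Cd38+/+ library. The 6 choroid plexus markers summed to 47.7 to 305, 202 to 7332 and 224 to 1946 TPM, and 5 of the 6 were higher in Cd38-/- than in Cd38+/+ libraries by the test used below, where 6.42% of all tested genes were. By that test 2 of 10 astrocyte, 1 of 7 tested microglia and 1 of 6 ependymal markers were also higher, and no other marker was called in any comparison. Over all 12 libraries the ependymal markers summed to 3006 to 6235 TPM, the endothelial markers to 506 to 2768, the mural and fibroblast markers to 518 to 1149, the oligodendrocyte precursor markers to 276 to 666, the neuron markers to 33.1 to 124 and the border macrophage markers to 0 to 12.8. The part of other cells in the results below was not tested, and in bulk RNA fewer cells of a type and less RNA per cell cannot be told apart. The targeted gene followed the labels, with 105 to 149 TPM in Cd38+/+, 90.4 to 90.8 in Cd38+/- and 8.54 to 21.9 in Cd38-/- libraries.

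Apoe and Clu were among the most abundant transcripts of these astrocytes, and Abcg1 and Lpl were rare. Apoe ranked 1 by TPM in 12 of 12 libraries. It held 4.49% to 5.05% of all TPM in Cd38+/+, 3.30% to 4.53% in Cd38+/- and 3.13% to 4.68% in Cd38-/- libraries, which was 2.09 to 3.02 times the TPM of Cst3, the gene of rank 2 in every library. The 10 genes together held 3.95% to 5.73% of TPM. Clu ranked 6 to 8 in Cd38+/+, 4 in each Cd38+/- and 5 to 7 in Cd38-/- libraries. A rank does not depend on how a library is scaled as a whole, but it moves with the other genes near it. The ranks of Clu in Cd38+/+ did not overlap those in Cd38+/-. How many of all genes separate so by rank was not counted, and by TPM 15.5% were higher without overlap in that comparison.

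Apod and the enzyme Lcat came next. Over all 12 libraries, Apod ranked between 71 and 963 and Lcat between 285 and 667. Lrp1 ranked from 933 to 4132, Apoc1 from 1199 to 3998 and Nr1h2 from 1274 to 2059, 3 ranges that overlap each other. Abca1 ranked from 2799 to 6374, which overlaps Lrp1 and Apoc1. Abcg1 ranked from 9500 to 11695 and Lpl from 10617 to 13161, which also overlap. Compared within each library, Lrp1 ranked above Abca1 in every library. Abcg1 ranked above Lpl in every library except Cd38-/- replicates 2 and 3. The order of Apod and Lcat, and that of Lrp1, Apoc1 and Nr1h2, changed between libraries.

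**Figure D1:**
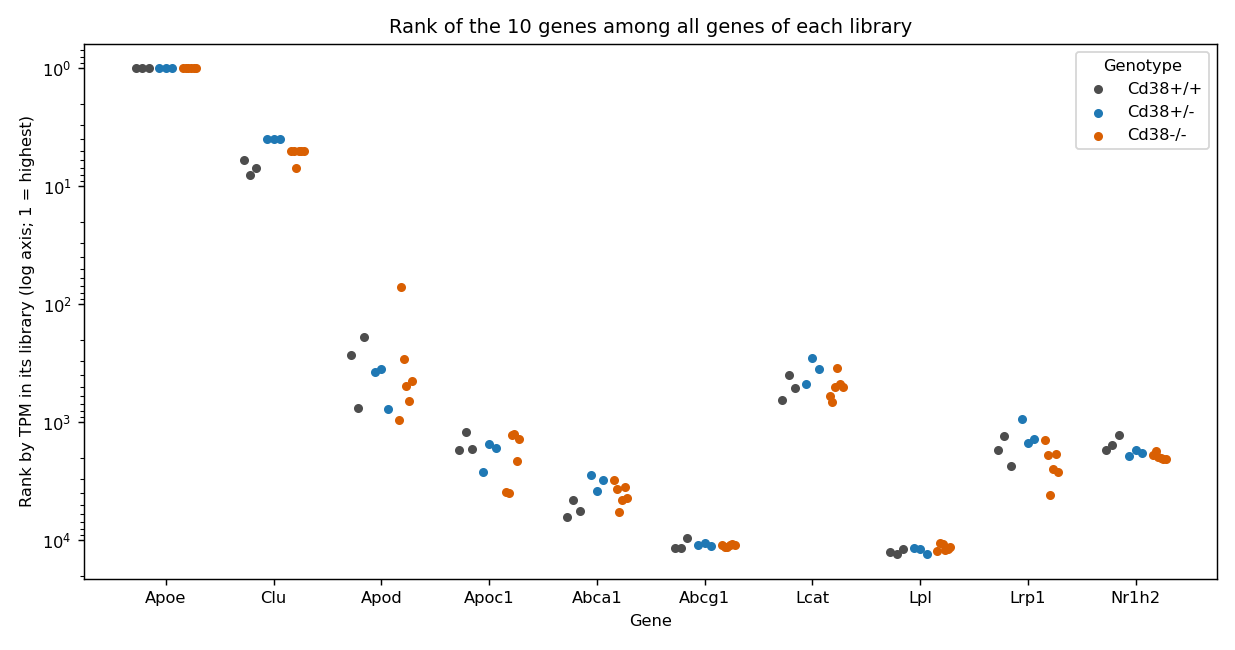
Rank of each of the 10 genes by TPM within its library (vertical log axis, 1 at the top is the highest) for 3 Cd38+/+, 3 Cd38+/- and 6 Cd38-/- libraries, 1 point per library. Apoe is at rank 1 in all 12 libraries, Clu lies between 4 and 8, and Abcg1 and Lpl lie at rank 9500 or beyond.

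Genotypes were compared with limma on log2(TPM + 1), over every gene whose mean exceeded 5 TPM in 1 or both of the genotypes compared. Genes were called differentially expressed (DEGs) at a Storey q below 0.05 together with a change of 1.2-fold or more. Of the 10 genes, 9 passed the filter in each comparison and Lpl did not. None of the 9 was a DEG in any of the 3 comparisons. For Cd38+/- against Cd38+/+ libraries this was 0 of 9, where 0% of all 11763 tested genes were DEGs, and 1 of the 9 (Abca1) had an unadjusted p under 0.05, where 13.5% of all genes did. In the comparison of Cd38-/- with Cd38+/+ it was 0 of 9, where 8.28% of 11722 genes were DEGs, and 2 of the 9 (Abca1 higher, Nr1h2 lower) had an unadjusted p under 0.05, where 23.6% of all genes did. Between the mutant genotypes it was 0 of 9, where 0.0346% of 11563 genes were DEGs, and 1 of the 9 (Lrp1) had an unadjusted p under 0.05, where 11.2% of all genes did. The comparisons share their libraries, so their values are given side by side and not as separate evidence. The median log2 fold change over all tested genes was 0.18, 0.15 and -0.02 in these comparisons, and a fold change below is to be read against that shift.

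**Figure D2:**
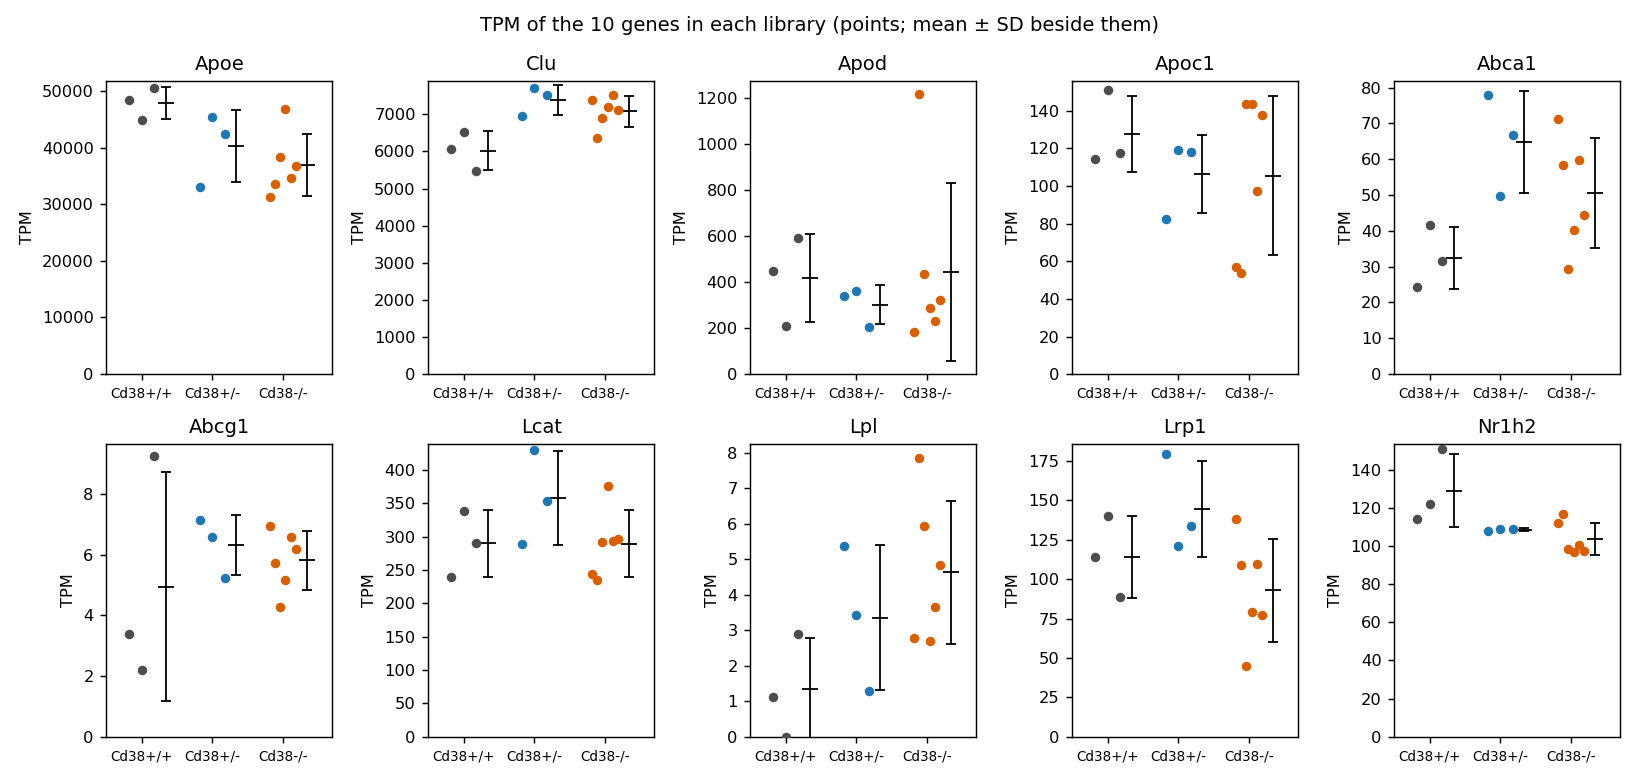
TPM of the 10 genes (1 panel each, vertical axis from 0) in each of 3 Cd38+/+, 3 Cd38+/- and 6 Cd38-/- libraries, with the mean and SD of each genotype beside the points. Abca1 and Clu are higher in every Cd38+/- than in every Cd38+/+ library, Nr1h2 is lower, and 1 Cd38-/- library stands apart in Apod (the lower end of the SD bar of Lpl in Cd38+/+ lies below 0 and is not drawn).

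Apoe (ENSMUSG00000002985, chromosome 7 from 19696109 to 19699188) encodes apolipoprotein E, the main lipid acceptor released by astrocytes. Its TPM was 48498, 44913 and 50487 in the Cd38+/+ libraries and 33050, 45345 and 42427 in the Cd38+/- libraries. In the 6 Cd38-/- libraries it ran from 31311 through a median of 35725 to 46797. Of the Cd38+/- libraries 2 of 3 lay below the lowest Cd38+/+ library, as did 5 of 6 Cd38-/- libraries, and 1 library of each mutant genotype lay within the Cd38+/+ range. The means were 47966 ± 2825 (SD, n = 3), 40274 ± 6424 (SD, n = 3) and 36927 ± 5421 (SD, n = 6). Cd38-/- against Cd38+/+ libraries differed by a log2 fold change of -0.39 (95% confidence interval -0.79 to 0.01, limma q = 0.126). A two-sided exact permutation test of the same difference gave p = 0.0357, which was 0.19 after Benjamini-Hochberg adjustment over all 11722 genes. For Cd38+/- against Cd38+/+ the log2 fold change was -0.26 (95% confidence interval -0.69 to 0.17, limma q = 0.345), and for Cd38-/- against Cd38+/- it was -0.12 (95% confidence interval -0.57 to 0.32, limma q = 0.621). The mean of Apoe was lower in both mutant genotypes by amounts that did not pass the threshold against the spread between libraries. The paper, in its own analysis, reports Apoe as downregulated in both mutant genotypes against Cd38+/+. With the trends on length and GC taken out of each library, the log2 fold change of Apoe was -0.10 (limma q = 0.371) for Cd38-/- and 0.07 (limma q = 0.568) for Cd38+/- against Cd38+/+, the latter with the opposite sign. Over all 21 alternatives that give Apoe a value, that for Cd38-/- ran from -0.50 to -0.10 (limma q from 0.0869 to 0.637). For Cd38+/- it ran from -0.40 to 0.07 over 18 alternatives (limma q from 0.224 to 0.732), 2 of them with the opposite sign.

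Clu (ENSMUSG00000022037, chromosome 14 from 65968483 to 65981547) encodes clusterin, also called apolipoprotein J, another secreted lipid carrier and a chaperone. Its TPM was 6061, 6525 and 5481 in Cd38+/+ and 6942, 7706 and 7507 in Cd38+/- libraries. The Cd38-/- libraries ran from 6364 through a median of 7158 to 7515. Every Cd38+/- library was above every Cd38+/+ library, a separation seen in the higher direction for 15.5% of all genes in that comparison. In the Cd38-/- group 5 of 6 libraries were above the Cd38+/+ range. Its log2 fold change was 0.30 for Cd38+/- (95% confidence interval -0.02 to 0.61, limma q = 0.246) and 0.23 for Cd38-/- (95% confidence interval -0.03 to 0.50, limma q = 0.152). Neither passed the threshold, and the median gene shifted by 0.18 and 0.15 in the same comparisons. With the length and GC trends removed the values were 0.49 (limma q = 0.231) and 0.40 (limma q = 0.0519), again not past the threshold. Between the mutant genotypes the log2 fold change was -0.06 (95% confidence interval -0.32 to 0.20).

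With Apoe lower and Clu higher on average in the mutant genotypes, their ratio within a library is given as a description, chosen with the values known and without a test. The TPM of Apoe was 6.88 to 9.21 times that of Clu in Cd38+/+ libraries (mean 8.03 ± 1.16, SD, n = 3), 4.76 to 5.88 times in Cd38+/- libraries (mean 5.43 ± 0.593, SD, n = 3) and 4.25 to 6.49 times in Cd38-/- libraries (mean 5.23 ± 0.783, SD, n = 6). No Cd38+/+ library overlapped either mutant genotype in this ratio, and how many other pairs of genes separate so was not counted. Single genes separated often, for Cd38+/- 15.5% of all genes in the higher and 6.94% in the lower direction. For Cd38-/- these shares were 8.21% and 3.62%. Within genotypes, Apoe ran with the length tilt of the libraries described below (r = -0.83) and Clu did not (r = 0.01), so the ratio also carries that tilt. The ratios of Apoe to Apoc1, with means of 384, 380 and 398, and of Apoe to Apod, with means of 135, 143 and 119, overlapped between all 3 genotypes.

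**Figure D3:**
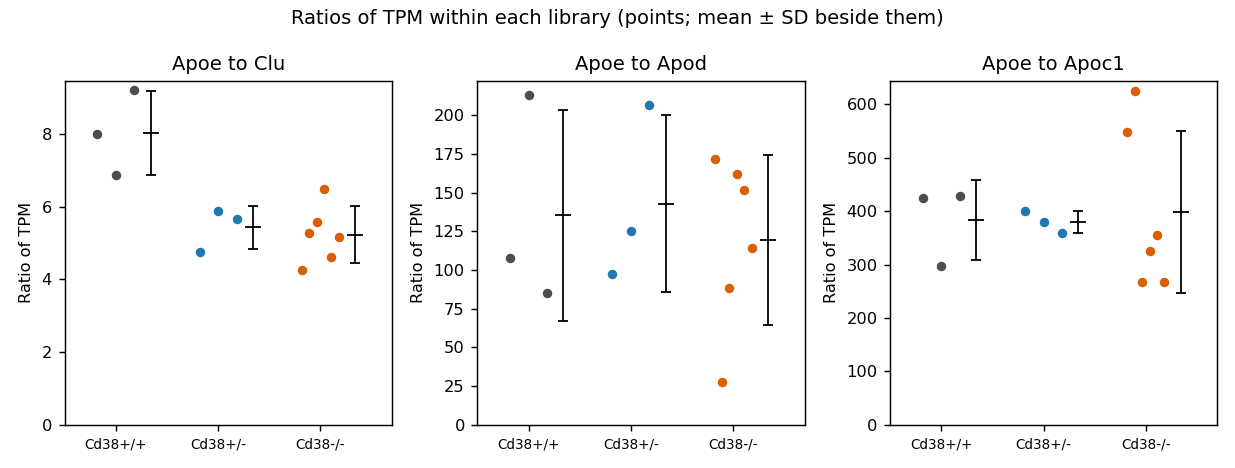
Ratio of the TPM of Apoe to that of Clu, Apod and Apoc1 within each library (vertical axes from 0, 1 point per library, mean and SD beside the points) for 3 Cd38+/+, 3 Cd38+/- and 6 Cd38-/- libraries. The ratio of Apoe to Clu is 6.88 to 9.21 in Cd38+/+ and at most 6.49 in the other libraries, while the ratios to Apod and Apoc1 overlap.

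Apod (ENSMUSG00000022548, chromosome 16 from 31296192 to 31314808) encodes apolipoprotein D, a lipocalin that binds small lipids and is also made by oligodendrocytes and by cells around vessels. Its TPM was 448, 211 and 593 in Cd38+/+ and 340, 362 and 205 in Cd38+/- libraries. The Cd38-/- libraries ran from 182 through a median of 306 to 1217. The genotypes overlapped, and the spread within Cd38-/- was 86.9% of its mean, set by replicate 2 at 1217. Apod had a log2 fold change of -0.10 for Cd38-/- (limma q = 0.524) and -0.38 for Cd38+/- (limma q = 0.412) against Cd38+/+, and 0.28 for Cd38-/- against Cd38+/- (limma q = 0.625), which was -0.07 without that replicate.

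Apoc1 (ENSMUSG00000040564, chromosome 7 from 19689481 to 19692660) encodes apolipoprotein C1, a small exchangeable protein of lipoproteins. It is the neighbour of Apoe, 3448 bases away on the same strand, with none of the genes in the table between them. Its TPM was 114, 151 and 118 in Cd38+/+ and 82.7, 119 and 118 in Cd38+/- libraries. Of the Cd38-/- libraries, 2 held 57.1 and 53.8 and the other 4 held 97.6 to 144, with a median of 118 over all 6. The genotypes overlapped throughout. The log2 fold change was -0.37 for Cd38-/- (95% confidence interval -1.08 to 0.33, limma q = 0.287) and -0.26 for Cd38+/- (95% confidence interval -0.74 to 0.21, limma q = 0.365) against Cd38+/+. Between the mutant genotypes it was -0.11 (limma q = 0.673) and took the opposite sign, at 0.04 and 0.06, without Cd38-/- replicate 1 or replicate 2.

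Abca1 was the exporter that differed most between the group means. Abca1 (ENSMUSG00000015243, chromosome 4 from 53030787 to 53159895) encodes the transporter that loads cholesterol and phospholipid onto poorly lipidated apolipoproteins and is a direct LXR target. Its TPM was 24.2, 41.5 and 31.7 in Cd38+/+ and 78.02, 49.7 and 66.7 in Cd38+/- libraries. Those of Cd38-/- ran from 29.2 through a median of 51.3 to 71.2. Every Cd38+/- library was above every Cd38+/+ library, as for 15.5% of all genes, whereas the Cd38-/- libraries overlapped both. Cd38+/- against Cd38+/+ libraries differed by a log2 fold change of 0.98 (95% confidence interval 0.35 to 1.62, limma q = 0.177), a 1.98-fold higher mean that did not pass the q threshold. The two-sided exact permutation test gave p = 0.1, the smallest that 3 libraries against 3 allow. In 1 fit of all 12 libraries, in which the Cd38-/- libraries also inform the variance, the same log2 fold change had q = 0.0356 by limma and Abca1 was a DEG, as were 1464 of the 11763 genes in that fit. The value for Cd38-/- against Cd38+/+ was 0.60 (95% confidence interval 0.01 to 1.19, limma q = 0.117), and for Cd38-/- against Cd38+/- it was -0.39 (95% confidence interval -0.93 to 0.16, limma q = 0.432).

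Abcg1 (ENSMUSG00000024030, chromosome 17 from 31057675 to 31117988) encodes the exporter that passes cholesterol to particles already carrying lipid. It was rare, with 3.38, 2.20 and 9.25 TPM in Cd38+/+ and 7.14, 6.59 and 5.23 TPM in Cd38+/- libraries. In Cd38-/- libraries it ran from 4.27 through a median of 5.96 to 6.93 TPM. The highest and the lowest values of all libraries were both in Cd38+/+, and the genotypes overlapped. Against Cd38+/+, with a mean of 4.94 TPM, Abcg1 passed the filter only through its means of 6.32 in Cd38+/- and 5.81 in Cd38-/-. Abcg1 had a log2 fold change of 0.37 for Cd38-/- (95% confidence interval -0.51 to 1.24, limma q = 0.341) and 0.47 for Cd38+/- (95% confidence interval -0.89 to 1.84, limma q = 0.464). Without Cd38+/+ replicate 3, the library at 9.25, the value for Cd38-/- was 0.85 with limma q = 0.0414 and Abcg1 was a DEG, in a fit where 3119 genes were.

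Lcat (ENSMUSG00000035237, chromosome 8 from 105939551 to 105943382) encodes the enzyme that esterifies cholesterol on particles and was well expressed in all genotypes. Its TPM was 239, 339 and 291 in Cd38+/+ and 289, 429 and 354 in Cd38+/- libraries. Lcat in Cd38-/- ran from 236 through a median of 292 to 376. All groups overlapped. The log2 fold change was 0.30 for Cd38+/- (95% confidence interval -0.14 to 0.74, limma q = 0.324) and -0.0041 for Cd38-/- (95% confidence interval -0.35 to 0.34, limma q = 0.56) against Cd38+/+. Between the mutant genotypes it was -0.30 (95% confidence interval -0.65 to 0.04, limma q = 0.361). With the length and GC trends removed, the values against Cd38+/+ were 0.59 (limma q = 0.239) for Cd38+/- and 0.20 (limma q = 0.234) for Cd38-/-.

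Lpl (ENSMUSG00000015568, chromosome 8 from 68880491 to 68907448) encodes lipoprotein lipase, which frees fatty acids from triglycerides. The Cd38+/+ libraries listed it at 1.13, 0 and 2.88 TPM, and the Cd38+/- libraries held 5.37, 3.42 and 1.28 TPM. In Cd38-/- libraries it ran from 2.71 through a median of 4.24 to 7.85 TPM. The Cd38-/- libraries overlapped Cd38+/+ by the library at 2.88 alone. These means are all under the filter of 5 TPM. With no filter on low values, the log2 fold change on the log2(TPM + 1) scale was 1.40 for Cd38-/- against Cd38+/+ (standard error 0.468, limma q = 0.0526 over 18906 genes) and 0.99 for Cd38+/- (limma q = 0.287), neither past the threshold.

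Lrp1 (ENSMUSG00000040249, chromosome 10 from 127538161 to 127621148) encodes a large endocytic receptor for particles that carry apolipoprotein E. Its TPM was 114, 140 and 88.4 in Cd38+/+ and 179, 121 and 134 in Cd38+/- libraries. Lrp1 in Cd38-/- ran from 44.8 through a median of 94.0 to 138. The Cd38-/- libraries reached below both other genotypes and overlapped both. Cd38-/- and Cd38+/- libraries differed by a log2 fold change of -0.70 (95% confidence interval -1.32 to -0.07, limma q = 0.299), and the two-sided exact permutation test gave p = 0.0952. Against Cd38+/+ it was 0.34 for Cd38+/- (limma q = 0.325) and -0.35 for Cd38-/- (limma q = 0.277), of opposite sign and neither past the threshold.

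Nr1h2 (ENSMUSG00000060601, chromosome 7 from 44549616 to 44553951) encodes the beta form of LXR and varied little within each mutant genotype. Its TPM was 114, 122 and 151 in Cd38+/+ and 108, 109 and 109 in Cd38+/- libraries. Nr1h2 in Cd38-/- ran from 97.0 through a median of 99.6 to 117. Every Cd38+/- library was below every Cd38+/+ library, a separation seen in the lower direction for 6.94% of all genes in that comparison, and 1 Cd38-/- library overlapped the Cd38+/+ range. Against Cd38+/+ its log2 fold change was -0.31 for Cd38-/- (95% confidence interval -0.59 to -0.02, limma q = 0.104) and -0.24 for Cd38+/- (95% confidence interval -0.63 to 0.15, limma q = 0.346). The exact permutation test for Cd38-/- gave p = 0.0238, or 0.157 after Benjamini-Hochberg adjustment over all genes. With median-ratio scaling, which centres the typical gene on no change, the value for Cd38-/- was -0.42 with limma q = 0.0411 and Nr1h2 was a DEG, as were 941 of the 11722 genes in that fit. After removal of the trend on length and GC content it was -0.05 (limma q = 0.46).

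**Figure D4:**
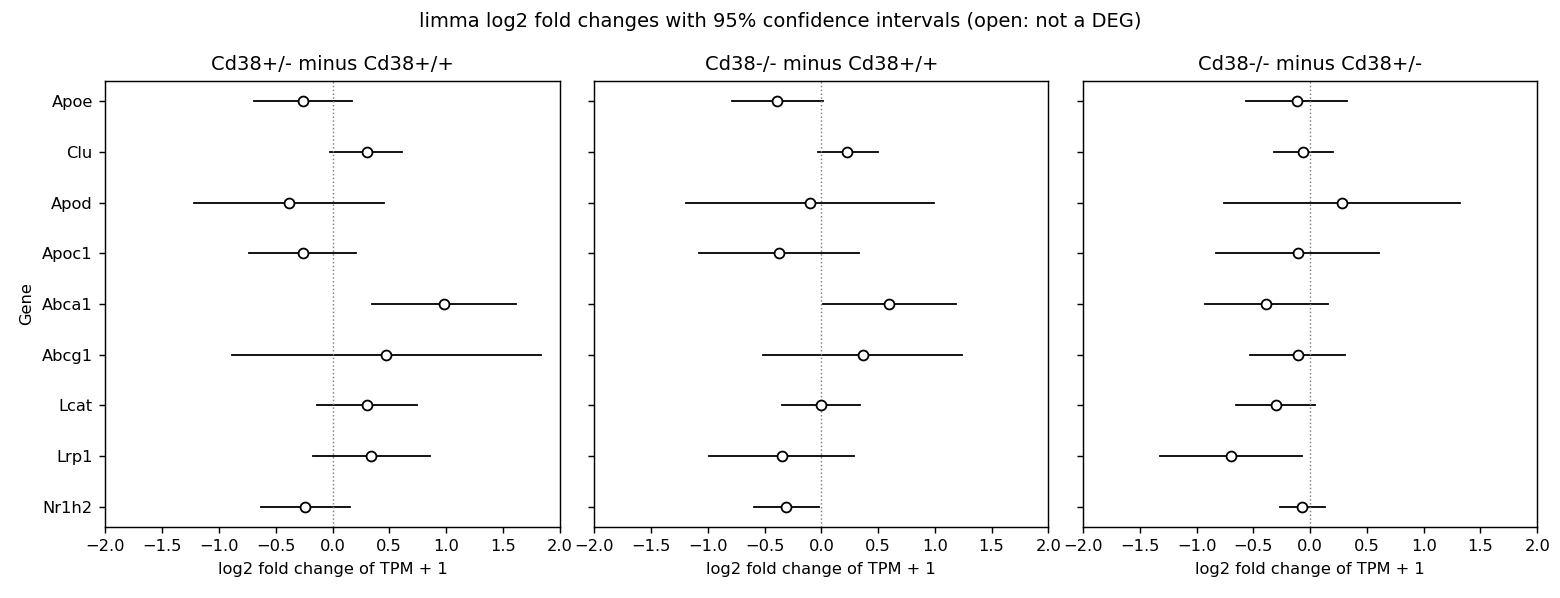
Log2 fold change of TPM + 1 with its 95% confidence interval for the 9 tested genes in the 3 comparisons of genotypes, an open circle marking a gene that was not a DEG. All circles are open, and the intervals that leave 0 are those of Abca1 in both comparisons with Cd38+/+, Nr1h2 for Cd38-/- against Cd38+/+ and Lrp1 for Cd38-/- against Cd38+/-.

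The lists of related genes hold 70 other genes of lipoprotein metabolism and 16 LXR targets. Of the latter, 5 are among the 10 genes described here (Apoe, Apoc1, Abca1, Abcg1 and Lpl) and 6 are among the 70. Of the 70, 44 were tested for Cd38-/- against Cd38+/+, and 2 were higher and 1 lower as DEGs, where 6.42% of all genes were higher and 1.86% lower, with a median log2 fold change of 0.16 against 0.15 over all genes. Of 44 tested for Cd38+/-, 0 were DEGs by limma, and 12 had an unadjusted p under 0.05, where 13.5% of all genes did. Of these 12, 10 were higher, where 1117 of all 11763 tested genes had such a p and were higher. The median log2 fold change was 0.38 against 0.18 over all genes. Of 43 tested between the mutant genotypes, 0 were DEGs by limma, and 7 had an unadjusted p under 0.05, where 11.2% of all genes did. All 7 were lower in Cd38-/-, where 578 of all 11563 tested genes had such a p and were lower. The median was -0.20 against -0.02. Among 11 other apolipoproteins only Apoc3 could be tested, at 0 to 43.9 TPM in Cd38+/+ and 4.59 to 13.6 TPM in Cd38-/- libraries (log2 fold change -0.06, limma q = 0.552). Apoa1, the main protein of plasma HDL, had 1.28 to 3.35 TPM over all libraries and Apoa2 had at most 4.86.

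Among 10 other lipid transporters, 7 were tested for Cd38-/- against Cd38+/+ and Abca3 and Abca5 rose. Abca3, a phospholipid transporter of lamellar bodies, had 9.80, 13.6 and 14.7 TPM in Cd38+/+ and 58.1, 30.9 and 46.3 TPM in Cd38+/- libraries, and 21.3 to 53.7 TPM in Cd38-/- libraries. No Cd38+/+ library overlapped the others, a separation in the higher direction seen for 8.21% of all genes with Cd38-/- and 15.5% with Cd38+/-, and Cd38-/- was higher by 1.40 on the log2 scale (standard error 0.281, limma q = 0.0175). Without Cd38-/- replicate 2 its q was 0.0573, and without replicate 5 it was 0.0536. Abca5, a transporter of endosomes and lysosomes, had 6.36, 0.60 and 5.34 TPM in Cd38+/+ and 7.01 to 17.0 TPM in Cd38-/- libraries. It passed the filter only through its Cd38-/- mean of 12.1 TPM, with a mean of 4.1 in Cd38+/+. Its log2 fold change was 1.58 (standard error 0.478, limma q = 0.0469). Without Cd38+/+ replicate 2, the library at 0.60, that value was 0.88 with limma q = 0.0589, and without Cd38-/- replicate 1, 2, 3, 5 or 6 its q was between 0.0646 and 0.107. Abca5 also lost the call with Benjamini-Hochberg adjustment (q = 0.0829) and, counting these, in 15 of 22 alternatives in all, with values from 0.81 to 2.01.

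None of the 8 tested of 13 other lipid enzymes was a DEG for Cd38-/- against Cd38+/+. The most abundant was Pltp, which encodes phospholipid transfer protein, with 1835 ± 310 (SD, n = 3), 1437 ± 446 (SD, n = 3) and 1947 ± 506 (SD, n = 6) TPM from Cd38+/+ to Cd38-/-. Pon2 and Soat1, the latter encoding an enzyme that esterifies cholesterol for storage inside cells, had means of 118 and 128 TPM in Cd38+/+ and of 129 and 118 TPM in Cd38-/- libraries. Of 21 other receptors and partners, 14 were tested for Cd38-/- and none was a DEG. Lrpap1, the chaperone of Lrp1, had 458 to 541 TPM in Cd38+/+ and 354 to 453 TPM in Cd38-/- libraries without overlap, as 3.62% of all genes did in the lower direction (log2 fold change -0.32, limma q = 0.0715). Lrp8, a receptor that also binds reelin, had a log2 fold change of 0.58 (limma q = 0.104) and the sorting receptor Sorcs2 one of 0.41 (limma q = 0.139) in Cd38-/-.

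Among 15 other regulators and oxysterol enzymes, 14 were tested for Cd38-/- and Rxrb fell. Rxrb encodes a retinoid X receptor, a class of partner with which LXR binds DNA. It had 63.3, 65.7 and 96.9 TPM in Cd38+/+, 39.2 to 48.9 TPM in Cd38+/- and 38.8 to 49.9 TPM in Cd38-/- libraries, with no overlap between Cd38+/+ and the others, as in the lower direction for 3.62% of all genes with Cd38-/- and 6.94% with Cd38+/-. Its log2 fold change was -0.75 (standard error 0.172, limma q = 0.0235) for Cd38-/- and -0.77 (limma q = 0.182) for Cd38+/-. The call for Cd38-/- was lost, with q from 0.0519 to 0.0628, without Cd38-/- replicate 1, 2, 5 or 6.

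Of the 16 LXR targets, 13 were tested. In the comparison of Cd38-/- with Cd38+/+, 2 rose and 0 fell as DEGs, where 6.42% of all genes were higher and 1.86% lower, with a median log2 fold change of 0.32 against 0.15 over all genes. For Cd38+/- 0 were DEGs by limma, and 7 had an unadjusted p under 0.05, where 13.5% of all genes did. All 7 were higher, where 1117 of all 11763 tested genes had such a p and were higher. These 7 include Abca1 and genes also counted in the pathway list above, so the counts are not separate. Of the 13 tested, 10 had a positive log2 fold change and 3 a negative one, namely Apoe, Apoc1 and Pltp. The median was 0.47 against 0.18. Scd2, a fatty acid desaturase, had 1010, 1032 and 1083 TPM in Cd38+/+, 1625 to 1913 TPM in Cd38+/- and 1169 to 1890 TPM in Cd38-/- libraries, with a log2 fold change of 0.55 in Cd38-/- (standard error 0.143, limma q = 0.0326). Smpdl3a, a phosphodiesterase, had 168 to 187 TPM in Cd38+/+ and 205 to 237 TPM in Cd38-/- libraries, with a log2 fold change of 0.36 (standard error 0.103, limma q = 0.0418). The call of Scd2 was lost without Cd38-/- replicate 1, 2, 5 or 6, with q from 0.0659 to 0.0826, and that of Smpdl3a without any 1 of the 6 Cd38-/- libraries, with q from 0.0616 to 0.0994. Both calls were also lost with Benjamini-Hochberg adjustment (q = 0.0576 and 0.074) and with eBayes without trend (q = 0.0593 and 0.0805). Smpdl3a was not a DEG with median-ratio scaling (log2 fold change 0.24, limma q = 0.131).

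The 10 genes also varied among libraries of 1 genotype, and for several of them that variation ran with transcript length. For each library, the deviation of each gene's log2(TPM + 1) from its mean over all libraries was correlated with the length of its longest transcript over 10785 genes, as a measure of how far long transcripts were over-represented in that library. This length tilt (Spearman's rho, a description across genes) was -0.21 to -0.07 in Cd38+/+, -0.03 to 0.61 in Cd38+/- and -0.46 to 0.49 in Cd38-/- libraries. After subtraction of genotype means, over 12 libraries, log2 Apoe correlated with the tilt at r = -0.83 and log2 Apoc1 at -0.80, with longest transcripts of 1408 and 532 bases. Abca1 and Lrp1, with longest transcripts of 10262 and 14888 bases, correlated at 0.90 and 0.89. The values for Clu, at 0.01, Apod, at -0.18, and Lpl, at -0.07, were near 0. The Cd38+/- library with the lowest Apoe, 33050 TPM, had a tilt of 0.61 and the highest Abca1 of all libraries, 78.02 TPM. The same library held the highest summed choroid plexus markers of all libraries, 7332 TPM, whose part in these values was not tested. The Cd38-/- library with the lowest Abca1, 29.2 TPM, and the lowest Lrp1, 44.8 TPM, had a tilt of -0.46. With the length and GC trend removed from each library, the log2 fold change of Abca1 was 0.79 (limma q = 0.239) for Cd38+/- and 0.50 (limma q = 0.0828) for Cd38-/- against Cd38+/+. All these points share the scaling of their library.

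**Figure D5:**
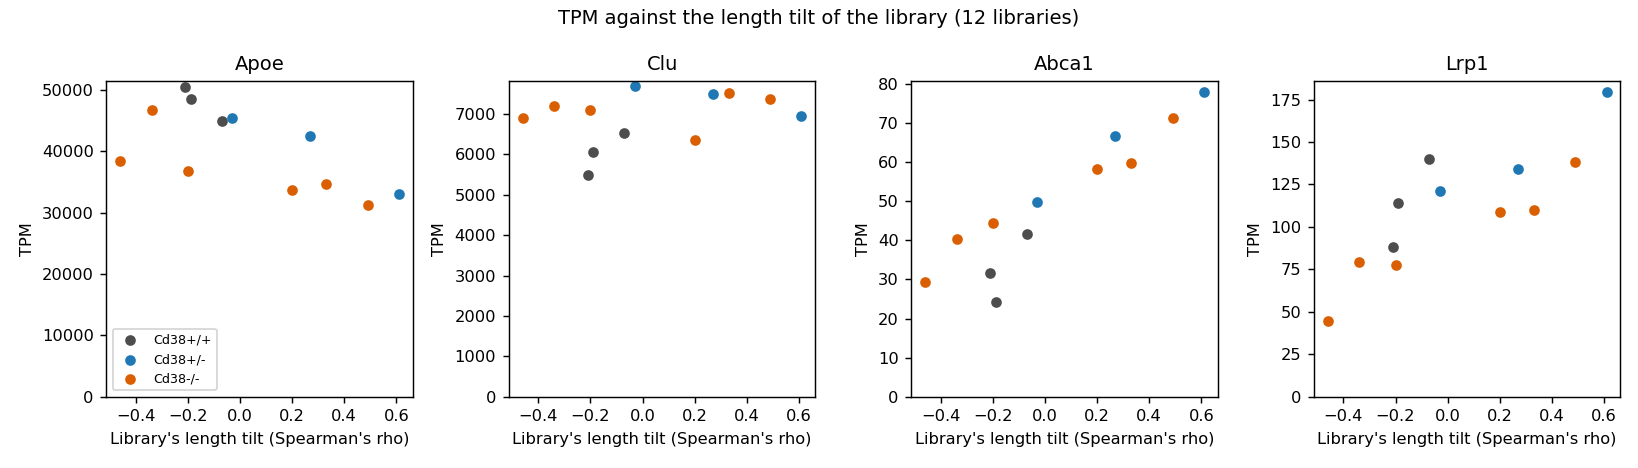
TPM of Apoe, Clu, Abca1 and Lrp1 (vertical axes from 0) against the length tilt of the library (horizontal axis, Spearman's rho across genes between a gene's deviation from its mean and its transcript length), 1 point for each of 12 libraries in the colour of its genotype. Apoe is lower and Abca1 and Lrp1 are higher in libraries with a higher tilt, within Cd38+/- and Cd38-/- as well as over all libraries, and Clu shows no such slope.

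A like pattern is seen between those members that ran with the length tilt. After subtraction of genotype means, Apoe correlated with Lcat at r = 0.75 and with Apoc1 at 0.69, and with Abca1 at -0.70 and Lrp1 at -0.64, while Abca1 and Lrp1 correlated at 0.89. Clu stood apart from Apoe (r = 0.13) and ran against Apod (r = -0.84) and Lpl (r = -0.85), which ran together (r = 0.82). Clu, Apod and Lpl had correlations with the length tilt near 0, and Lpl was rare. Cd38-/- replicate 2 held the highest Apod and Lpl and the lowest Clu of its genotype. These values describe 12 libraries and carry no test. Among 10796 genes with a TPM of at least 1 in every library, the 5 most like Apoe by this measure were Ckb (r = 0.953), C1qtnf5 (0.928), Tmem101 (0.924), 0610012G03Rik (0.923) and Clpp (0.923). Ckb encodes brain creatine kinase and had a mean of 9164 TPM, and Clpp encodes a mitochondrial protease. Their longest transcripts ran from 983 to 2839 bases.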

How the data were processed

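RNA of astrocytes captured with ACSA-2 beads was sequenced in 12 libraries of male mice, grouped by the genotype in the labels. According to the submitters' processing notes and the study's methods, the authors trimmed reads with Trim Galore 0.6.4, mapped them to mm10 with STAR 2.7.1a and estimated expression with RSEM 1.2.28. The annotation is not given in the sources used here. The deposited values are TPM with 2 decimals for 20614 genes. TPM keeps no read number, so depth and counting error are unknown, and a change in very abundant transcripts moves all others. The labels give the molecule as polyA RNA, while the protocol names depletion of ribosomal RNA. They name no batch and do not state that libraries are separate mice, so p-values measure the spread between these libraries.

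In each comparison, genes whose mean exceeded 5 TPM in either genotype or both were fitted as log2(TPM + 1) with limma 3.58.1 (lmFit, eBayes with trend) under R 4.3.3, using only the compared libraries. A DEG had a Storey q under 0.05 over all tested genes and at least a 1.2-fold change, the study's thresholds. The tools listed for the upstream processing include DESeq2 1.36.0, which models counts, so calls here need not match those of the study. Since the values are TPM, no count model was used. Two-sided exact permutation tests were a check, with a smallest possible p of 0.1 for 3 against 3 libraries and 0.0119 for 6 against 3. GENCODE vM21 on GRCm38 gave positions, longest transcripts and GC content for 20503 genes, and RefSeq gave promoter windows. Figures were drawn with matplotlib 3.10.9.

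The members and the lists were chosen with earlier results of these data known. The genes named are the 10 members, Cd38, each list gene called as a DEG and otherwise at most the 3 of highest mean TPM per role, and the 5 genes most like Apoe. Markers of other cell types are given as summed TPM. The alternatives covered the pseudocount (0.1 and 5), the filter (none, or 1 TPM or more in all compared libraries), the adjustment (Benjamini-Hochberg), the variance model (eBayes without trend, library quality weights with statmod 1.5.0, or a single fit of 12 libraries), the scaling (median-ratio, quantile), a replicate block, a length and GC correction, the block with that correction, and leaving out each library. Rescaling without Apoe was added after seeing the data. Protein sequences were not used here.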

Additional observations from a re-analysis of the deposited data

Results flagged for a closer look

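Of the 10 genes, each tested for an outlying library among the 6 Cd38-/- libraries, Apod alone had a library far from the others. Cd38-/- replicate 2 held 1216.68 TPM of Apod, and the gap to the next library was 0.756 of the whole range of the group. Chance marks about 1 in 20 such groups, and 10 were tested. The same library held the highest summed choroid plexus markers of the genotype, 1946 TPM, and the highest Lpl, 7.85 TPM, while its summed oligodendrocyte markers, 3629 TPM, and its summed mural and fibroblast markers, 837 TPM, lay within the range of the other Cd38-/- libraries. The part of other cells in the Apod value was not tested.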

How the results depend on the processing

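The count of DEGs among the 9 tested genes stayed at 0 except in 4 fits. For Cd38+/- against Cd38+/+ it was 1 (Abca1, q = 0.0356) with all 12 libraries in one fit, which called 1464 genes. For Cd38-/- against Cd38+/+ it was 1 (Nr1h2, -0.42, q = 0.0411) with median-ratio scaling, which called 941 genes, and ranged from 0 to 1 when libraries were left out (Abcg1, q = 0.0414, without Cd38+/+ replicate 3). For Cd38-/- against Cd38+/- it was 4 (Apod, 0.79, Abca1, -0.45, Lcat, -0.29, and Lrp1, -0.62) with library quality weights, a fit that called 3120 genes and whose weights did not converge, as in Cd38+/- against Cd38+/+. The weights did converge for Cd38-/- against Cd38+/+, where the calls of Abca3, Abca5, Rxrb, Scd2 and Smpdl3a were all lost (q from 0.275 to 0.455). The cause was not tested.

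Signs that turned, as log2 fold changes, were the following. For Cd38+/- against Cd38+/+, Abcg1 was -0.26 with quantile normalization, and Apoe was 0.07 and Apoc1 0.22 with the length and GC trend removed, the same as with the replicate block added. For Cd38-/- against Cd38+/+, Lcat was 0.05 with library weights, 0.01 with quantile normalization, 0.20 with the length and GC trend removed and 0.07 with the block added to that. Abcg1 was -0.40 with quantile normalization, Apod 0.26 with the replicate block and 0.30 with block and trend removal, and Nr1h2 0.04 with block and trend removal. For Cd38-/- against Cd38+/-, Abcg1 was 0.13 with library weights and 9.8e-05 with the trend removed, and Nr1h2 0.0034 with the replicate block and 0.04 with block and trend removal. With libraries left out, Apod ran from -0.53 to 0.21 and Lcat from -0.13 to 0.12 for Cd38-/- against Cd38+/+, and Apod from -0.07 to 0.47 and Apoc1 from -0.28 to 0.06 for Cd38-/- against Cd38+/-. In a fit that left out a library, the variance was shared over the remaining ones.

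The labels do not say whether equal replicate numbers pair the libraries. Deviations from the genotype means correlated above 0.1 in 1 of 9 pairs of equal number (r from -0.317 to 0.501) and in 9 of 36 other pairs. Such correlations also carry the length tilt of each library, so they cannot decide whether libraries were paired. The replicate block left the count among the 9 genes at 0 in all 3 comparisons and took that among the 70 pathway genes from 3 to 0 for Cd38-/- against Cd38+/+. Numbers 4, 5 and 6 exist only in Cd38-/-, so with the block those libraries add nothing to a comparison. The values with the block, here and above, therefore use Cd38-/- replicates 1, 2 and 3 alone. The count of pathway genes ran from 0 to 14 over all alternatives for Cd38-/- against Cd38+/+, and that of LXR targets from 0 to 6. For Cd38+/- against Cd38+/+ the counts of pathway genes and LXR targets ran from 0 to 10 and from 0 to 6, highest with all 12 libraries in 1 fit. For Cd38-/- against Cd38+/- they ran from 0 to 18 and from 0 to 7, highest with the library weights that did not converge. With median-ratio scaling 59.9% of DEGs for Cd38-/- were higher and with quantile normalization 50.5%, against 77.5% as reported. Quantile normalization gives no value for Apoe, which is rank 1 in every library and so is set equal. Ranks without mitochondrially encoded genes were not run, since the table holds 0 genes with such a symbol. Rescaling to a sum without Apoe, added after seeing the data, gives no value for Apoe itself. It turned no sign of the other tested members and left their count of DEGs at 0.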

Other observations

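Among the related genes outside the naming rule, Ch25h was chosen after its values were seen. Ch25h, which makes an oxysterol that activates LXR, had 13.03, 15.52 and 0 TPM in the Cd38+/+ libraries, 0.56 to 0.74 TPM in Cd38+/- and 0.16 to 1.5 TPM in Cd38-/- libraries, so that 2 of the 3 Cd38+/+ libraries stood far above all others and the third was listed at 0. Ch25h passed the filter only through its Cd38+/+ mean of 9.52 TPM, with a mean of 0.787 in Cd38-/-. Between Cd38-/- and Cd38+/+ libraries the difference was -1.85 on the log2(TPM + 1) scale (limma q = 0.109), which did not pass the threshold.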
